A study of Mus musculus with 18 samples.

Results

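Dorsal root ganglia hold the cell bodies of the sensory neurons of trunk and limbs, with satellite glia around them and Schwann cells along their axons. The results below concern ganglia of mice lacking importin alpha3 (knockout, KO) taken 2.5 months after spared nerve injury (SNI), a surgery that cuts branches of the sciatic nerve and leaves another branch intact. The 3 libraries were selected by the count-table columns ko_362_2_5_m, ko_367_2_5_m and ko_378_2_5_m, here ko_362, ko_367 and ko_378, and were compared with the 4 naive KO libraries ko_35, ko_39, ko_40 and ko_95, which came from uninjured mice. These 7 libraries are part of 18 in the series. Also used were the 3 KO libraries 7 d after SNI (ko_420, ko_422 and ko_426) and, without a test, the 4 naive wild-type (WT) libraries and the lone WT library 2.5 months after SNI. Every KO mouse, naive or injured, lacked importin alpha3, so this comparison shows injury and time within the knockout and not the effect of the knockout. The labels give no sham surgery, age, sex, strain or segmental level, and do not say how the knockout was made or whether 1 library is 1 animal, so p-values measure the spread between libraries. Values in lists below keep the library order given here.

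As background, cutting a peripheral axon switches a sensory neuron from transmission to repair. Transcription factors of the AP-1 and ATF families rise, growth-associated genes follow, and neuropeptides are exchanged, with galanin, neuropeptide Y and neurotensin changing in the classic descriptions. Glia and macrophages around the neuron respond as well. SNI is used because mechanical hypersensitivity lasts for months, so a late time point shows what persists after the acute response. Importin alpha proteins carry cargo with a nuclear localization signal into the nucleus, and importin alpha3 has been tied to the entry of c-Fos, a subunit of AP-1.

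Kpna4, the gene of importin alpha3 (chromosome 3, 69067149 to 69127113, minus strand, GRCm38), was at 2.5, 1.83, 2.87 and 1.94 counts per 1000000 counts of scaled library size (CPM) in the naive KO libraries and 1.39, 5.63 and 1.01 CPM in the 2.5-month KO libraries. All 7 values were far under the 108 to 136 CPM of naive WT, with ko_367 the highest of them. The log2 difference between the KO groups was 0.21 ± 0.39 (± SE, edgeR quasi-likelihood test, adjusted p = 0.731), and it was -0.92 without ko_367. The sensory neuron markers Isl1, Pou4f1, Prph, Scn10a and Avil were abundant in all 7 libraries, with Avil between 626 and 899 CPM in naive KO and between 768 and 829.96 CPM at 2.5 months, and none of the 5 was called. Of 20 genes of spinal cord neurons, 11 had a row of counts, 9 were tested and 0 called, beside 11.6% of all genes tested. The median log2 change of the 9 was 0.32, with 6 of them higher at 2.5 months. The summed level of the 11 was 18.03 to 31.4 CPM in naive KO and 22.4 to 29.6 CPM at 2.5 months.

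Several library properties moved with the groups. Total counts were 19231101 to 21585680 in naive KO and 16045783 to 19283086 at 2.5 months. The slope of log2 level on log10 exon length, a measure of how far a library favours long transcripts, was 0.137 to 0.245 in naive KO and -0.454 to -0.291 at 2.5 months, without overlap, and -0.553 in the lone WT library. It therefore cannot be told apart from time after injury here. Values after removal of this trend are given beside some results against naive as "length corrected". Of the 86 named genes that were called, 16 lost their call after this correction. A result without such a value is therefore not one that the correction left unchanged. Among naive KO libraries, ko_39 held injury genes above the other three (Sprr1a at 7.84, 112, 12.3 and 0.277 CPM, Atf3 at 8.55, 43.3, 10.4 and 5.58 CPM), which goes against its label of naive; whether the label is right cannot be settled here, and values without ko_39 are given for the genes it moves by over 1.5 times. The library ko_40 was high in blood, macrophage and mitochondrial transcripts, and ko_35 in muscle transcripts.

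Posterior Hox genes, which mark position along the spine, also differed among libraries. Hoxd10 was at 0.756, 2.01, 17.4 and 0.738 CPM in naive KO and 19.5, 16.8 and 15.4 CPM at 2.5 months. Hoxd11 was at 0, 0.732, 5.79 and 0.184 CPM and 4.8, 3.54 and 3.52 CPM, and Hoxc11 at 0, 0.0457, 7.71 and 0.323 CPM and 2.72, 4.73 and 1.65 CPM. Among naive KO libraries only ko_40 reached the level of the injured libraries for these genes, which were named after their values were seen (Hoxc11 and Hoxd11) or as early members of their list (Hoxd10). Neither Hoxd10 (edgeR, adjusted p = 0.335) nor any other of the 6 tested lumbar and sacral Hox genes was called, beside 11.6% of all genes tested. The summed level of the 7 with a row of counts was 54.8 to 89.6 CPM in naive KO and 77.7 to 89.3 CPM at 2.5 months. The part of segmental level in the results was not tested. The median log2 change of the 6 was 0.49, and 2.25 without ko_40, with 0 called in any of the leave-one-out fits.

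Across the transcriptome, 2196 of 19010 tested genes (11.6%) were called between 2.5 months and naive KO at an adjusted p under 0.05. Of these, 1328 (6.99% of those tested) were higher and 868 (4.57%) lower after injury. After length correction 1508 (7.93%) were called, 1067 (5.61%) higher and 441 (2.32%) lower, so the share of higher calls went from 60.5% to 70.8%. The number of calls depended on single libraries. It was 14 without ko_367, 366 without ko_39, 385 without ko_35 and 458 without ko_378, and 1396 to 1814 without each of the others. Of the 2196 called genes, 2175 kept their sign in all 7 of these fits, and 2169 had an unadjusted p under 0.05 (edgeR) in all of them. These fits share most libraries with the main fit. The group ranges were apart for 1301 of the genes that rose, 839 of those that fell and 33.5% of all genes tested. Ranges apart were also a condition for naming the largest rises and falls below. For those genes a lack of overlap describes the choice and is not further support.

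The 14 genes called without ko_367 were also called in each of the other 6 leave-one-out fits. En1, Ucn, Slc30a3, Nts, Cdkn2a, Hrk, Trem2, Ctla2a, Cys1, Ier5l, mt-Nd3 and the predicted gene Gm3608 rose, and Fabp7 and Rlbp1 fell; Ctla2a, Cys1, Ier5l, Gm3608 and Rlbp1 were named after their values were seen. Every other gene described below as risen or fallen was not called without ko_367, a fit in which Dlx2 was not tested. The number of the 7 fits in which a gene was called is given where its paragraph turns on it. All 14 were also called after length correction. The plot of genes with low naive levels shows 8 genes by library.

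**Figure D1:**
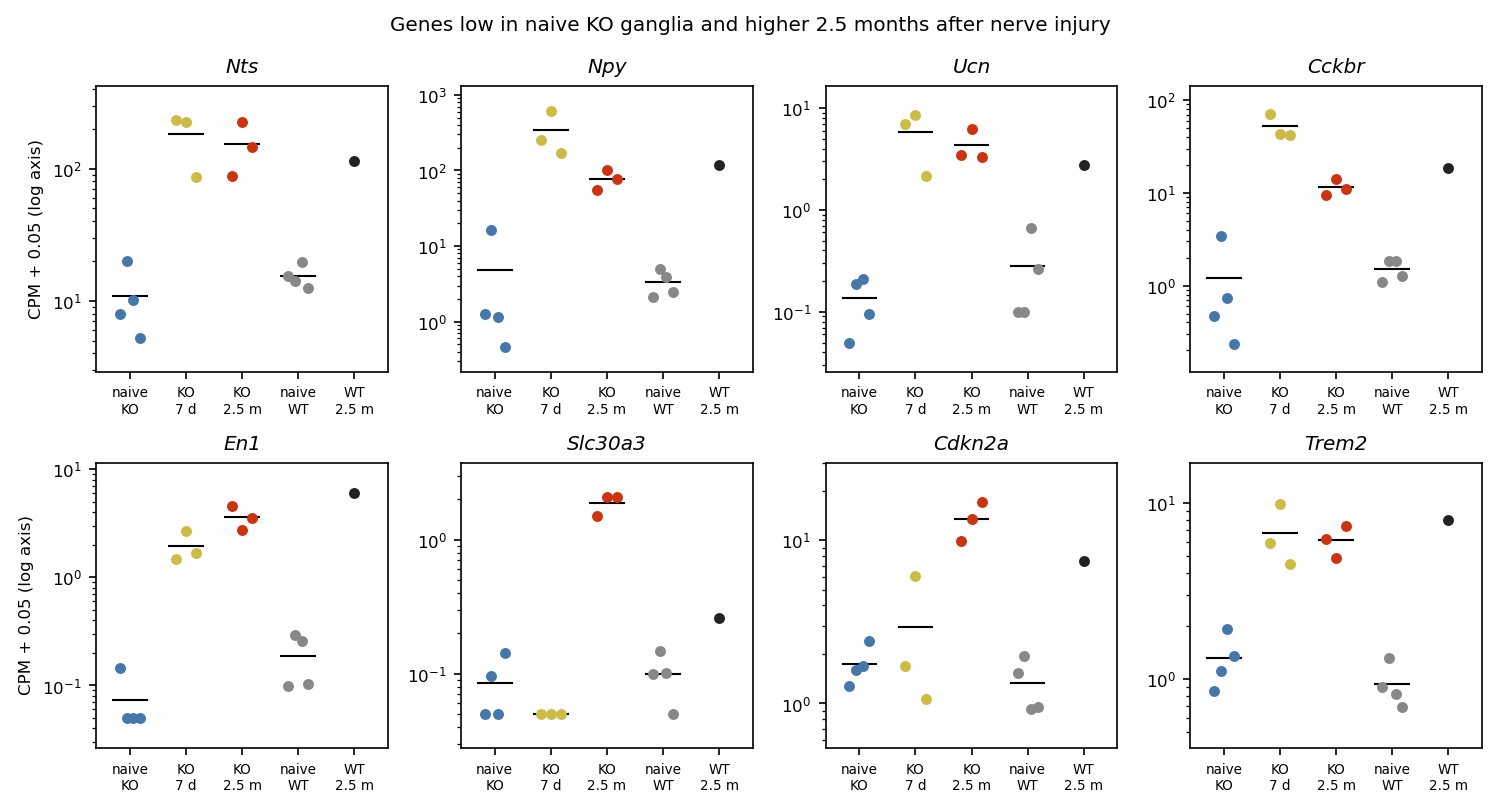
Each point is 1 library, on a log axis of CPM + 0.05, and each bar a group mean, for naive KO (n = 4), KO 7 d after SNI (n = 3), KO 2.5 months after SNI (n = 3), naive WT (n = 4) and WT 2.5 months after SNI (n = 1). The 2.5-month KO libraries lay above all naive KO libraries in each of the 8 panels, and Slc30a3 had no count in the 7 d KO libraries. All 8 genes were called, and nearly all called genes had ranges apart.

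Neuropeptide genes rose, from near absence or from a low level. Nts encodes neurotensin, a peptide with analgesic actions in the central nervous system (chromosome 10, 102481756 to 102490486, minus strand). It was at 7.93, 19.8, 10.2 and 5.21 CPM in naive KO and 87.4, 224 and 146 CPM at 2.5 months. The lowest injured library was over 4 times the highest naive library, so the groups did not overlap. The log2 change was 3.82 ± 0.43 (edgeR, adjusted p = 0.000731; length corrected 3.54). Nts was called in all 7 leave-one-out fits, with adjusted p from 9.07e-05 to 0.00613.

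Ucn, the gene of the corticotropin-releasing factor relative urocortin (chromosome 5, 31138063 to 31138829, minus strand), was at 0, 0.137, 0.159 and 0.0461 CPM in naive KO and 3.41, 6.23 and 3.25 CPM at 2.5 months. All injured libraries were above all naive ones, from 7 counts in the 4 naive libraries together. The log2 change was 5.56 ± 0.76 (edgeR, adjusted p = 0.00313). Npy, the gene of neuropeptide Y, a peptide that injured large sensory neurons start to make (chromosome 6, 49822710 to 49829507, plus strand), was at 1.23, 16.5, 1.12 and 0.415 CPM in naive KO and 55.5, 103 and 76.6 CPM at 2.5 months. The naive library ko_39 stood above the other three, and all injured libraries above it. The log2 change of Npy was 4.01 ± 0.86 (edgeR, adjusted p = 0.0192), called in 5 of the 7 leave-one-out fits, and 6.41 without ko_39.

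Some peptides that uninjured pain and itch neurons make rose as well, by smaller steps. Nppb, the natriuretic peptide that itch neurons release, went from 7.75, 12.2, 10.7 and 6.55 CPM to 16.7, 22.8 and 17.6 CPM, and Sst, somatostatin of the same neurons, from 9.63, 13.6, 7.71 and 13.4 CPM to 24.2, 27.8 and 21.1 CPM. Neither pair of groups overlapped, and the log2 changes were 1.03 ± 0.23 (edgeR, adjusted p = 0.018) and 1.13 ± 0.30 (edgeR, adjusted p = 0.0275). Nmb, neuromedin B, rose by 1.004 ± 0.28 (edgeR, adjusted p = 0.0332) and Calcb, the beta form of calcitonin gene-related peptide (CGRP), by 0.68 ± 0.19 (edgeR, adjusted p = 0.0339). After length correction the calls of these 4 were lost, with adjusted p from 0.0708 to 0.122. The peptides that were not called included Gal, galanin, at 11.4, 38.3, 18.6 and 10.4 CPM and 31.5, 62.8 and 22.5 CPM, where ko_39 exceeded an injured library, and Tac1, the substance P precursor, with a log2 difference of 0.48 ± 0.25 (edgeR, adjusted p = 0.183). Calca, alpha CGRP, differed by 0.43 ± 0.17 (edgeR, adjusted p = 0.0909). Gal, Tac1, Calca and Nmb were named after their values were seen. Of 19 neuropeptide genes tested, 7 (36.8%) rose, beside 6.99% of all genes tested, and 0 fell. Their median log2 change was 0.72 against -0.02 over all genes tested. Length corrected, 3 rose and the median was 0.52. In bulk ganglia, fewer cells of a type and less RNA per cell cannot be told apart, nor can more cells and more RNA per cell.

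The proximal promoters of Nts, Ucn and En1, a homeobox gene described below, are shown. These genes were called in all 7 leave-one-out fits, and importin alpha3 has been tied to an AP-1 subunit. Each window shown holds a motif, and windows searched that hold none are named below the sequences. RefSeq gives 2 windows for Per1, a clock gene that rose; the one that holds an E-box is shown, and the other, chr11:69099902-69100201 (plus strand), holds none of the motifs searched. The windows come from RefSeq (GRCm38.p6), run from 250 bases before to 50 after an annotated start, and are written 5′ to 3′ on the strand of the gene, with capitals for the motifs AP-1 (TGANTCA), CRE (TGACGTCA) and E-box (CACGTG), searched on both strands.
Nts, chr10:102490369-102490668 (minus strand): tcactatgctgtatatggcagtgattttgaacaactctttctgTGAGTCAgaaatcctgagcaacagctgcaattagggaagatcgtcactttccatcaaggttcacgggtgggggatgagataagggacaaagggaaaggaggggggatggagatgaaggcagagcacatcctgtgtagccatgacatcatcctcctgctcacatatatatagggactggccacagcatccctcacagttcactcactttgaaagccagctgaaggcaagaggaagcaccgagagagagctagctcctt
Ucn, chr5:31138846-31139145 (minus strand): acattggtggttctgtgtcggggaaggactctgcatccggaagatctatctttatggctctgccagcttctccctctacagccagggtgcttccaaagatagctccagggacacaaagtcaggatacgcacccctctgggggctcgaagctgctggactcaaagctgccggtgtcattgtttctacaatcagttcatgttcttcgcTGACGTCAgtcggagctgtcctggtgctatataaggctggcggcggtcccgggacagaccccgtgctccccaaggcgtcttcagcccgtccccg
En1, chr1:120602237-120602536 (plus strand): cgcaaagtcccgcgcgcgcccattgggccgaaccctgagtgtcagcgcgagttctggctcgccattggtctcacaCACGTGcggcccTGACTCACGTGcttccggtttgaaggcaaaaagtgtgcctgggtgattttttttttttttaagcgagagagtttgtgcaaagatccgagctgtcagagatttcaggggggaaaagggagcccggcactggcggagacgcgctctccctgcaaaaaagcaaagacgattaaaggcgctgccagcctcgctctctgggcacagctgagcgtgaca
Per1, chr11:69098699-69098998 (plus strand): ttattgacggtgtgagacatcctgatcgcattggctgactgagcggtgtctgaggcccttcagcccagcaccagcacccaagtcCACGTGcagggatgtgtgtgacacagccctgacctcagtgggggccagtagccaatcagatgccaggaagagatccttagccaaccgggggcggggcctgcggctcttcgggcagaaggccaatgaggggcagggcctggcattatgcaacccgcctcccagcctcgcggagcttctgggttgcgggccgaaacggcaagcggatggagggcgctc
The Nts window holds an AP-1 motif at -207, the Ucn window a CRE at -44. The En1 window holds E-boxes and an AP-1 motif at -175, -163 and -158, of which the AP-1 motif overlaps the second E-box. The Per1 window shown holds an E-box at -166. The windows of Npy, Fos, Nppb and Dbp hold none of the 3 motifs, nor do both windows of Arntl and of Slc30a3, a gene also called in all 7 fits. The windows of Sst and Cckbr, not shown, hold a CRE at -48 and an E-box at -106. Positions count from the annotated start, whose preceding base is -1. Such motifs were about as frequent elsewhere: AP-1 was in 5.64% of 1224 windows of genes that rose, 5.25% of 838 windows of genes that fell and 5.72% of 16701 windows of genes tested. For the CRE the shares were 3.1%, 2.27% and 2.69%, and for the E-box 10.05%, 7.4% and 9.13%. A match describes letters and not bound protein.

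Among receptors for peptides, 1 of 21 (4.76%) rose, beside 6.99% of all genes tested. Cckbr, the cholecystokinin B receptor, which appears in sensory neurons after axotomy, was at 0.425, 3.34, 0.691 and 0.184 CPM in naive KO and 9.37, 14.02 and 10.9 CPM at 2.5 months. The groups did not overlap, with ko_39 again the highest naive library. Its log2 change was 3.28 ± 0.56 (edgeR, adjusted p = 0.0111), called in 6 of the 7 fits. It was 4.73 without ko_39, and its adjusted p was 0.0549 without ko_367. Falls in the same list included Sstr1, a somatostatin receptor, with a log2 change of -2.36 ± 0.43 (edgeR, adjusted p = 0.0122; -2.99 without ko_378) and the endothelin receptor Ednra with -1.26 ± 0.20 (edgeR, adjusted p = 0.00764). In all, 3 peptide receptors (14.3%) fell, beside 4.57% of all genes tested, the other being the endothelin receptor Ednrb.

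Opioid and cannabinoid receptors, the targets of endogenous and prescribed analgesics, fell in 3 of 6 cases (50%), beside 4.57% of all genes tested. Oprm1, the mu-opioid receptor, was at 9.73, 11.1, 11.6 and 5.12 CPM in naive KO and 3.82, 1.32 and 2.34 CPM at 2.5 months. Oprd1, the delta-opioid receptor, was at 17.05, 13.9, 10.8 and 10.98 CPM and 6.01, 1.98 and 5.38 CPM, and Cnr1, the CB1 cannabinoid receptor, at 27.6, 26.4, 26.3 and 26.1 CPM and 15.9, 17.02 and 17.3 CPM. For each of the 3 every injured library lay below every naive library. The log2 changes were -1.91 ± 0.47 for Oprm1 (edgeR, adjusted p = 0.0214), -1.56 ± 0.31 for Oprd1 (edgeR, adjusted p = 0.0147) and -0.67 ± 0.17 for Cnr1 (edgeR, adjusted p = 0.0258). All 3 were called after length correction too, which left the list median at -1.10 against -1.12 as fitted; none of the 6 members rose. Without ko_367 the adjusted p ranged from 0.0666 to 0.108.

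Homeobox genes of embryonic patterning appeared at low levels. En1, the engrailed 1 transcription factor that specifies interneurons in the embryo (chromosome 1, 120602418 to 120607992, plus strand), was at 0.0945, 0, 0 and 0 CPM in naive KO and 4.51, 2.7 and 3.52 CPM at 2.5 months. Only 2 naive counts stood against 189 counts after injury, a ratio of 149.6 with an exact 95% counting interval of 40.9 to 1245 that covers counting error only. It had the smallest adjusted p of the genes named here (2.25e-05, edgeR). Lhx2, a LIM homeobox gene named after its values were seen, had 0 counts in all 4 naive libraries and 0.52, 0.839 and 0.479 CPM at 2.5 months, at least 16.9-fold higher against a floor of 3 counts over the naive group. Dlx2 and Six2 rose too, both staying under 1 CPM. Dlx2 rested on 20 counts at 2.5 months against 2 in naive KO. Among the leave-one-out fits it passed the filter only in the fit without ko_362, so it was not tested in the others. Of 18 homeobox genes tested outside the Hox clusters, 5 (27.8%) rose, beside 6.99% of all genes tested, and 0 fell, and 3 rose after length correction. Genes with almost no naive KO counts, such as En1, Lhx2 and Dlx2, could pass the count filter only through other libraries. Such genes could hardly fall, so the split between rises and falls is in part fixed by the filter. The sensory neuron transcription factors, which maintain neuron identity, showed 1 fall in 20 (5%, beside 4.57% of all genes tested) and 0 rises. Etv1, an ETS factor of proprioceptors, fell from 135, 116, 90.7 and 128 CPM to 69.7, 61.7 and 62.01 CPM. The groups had no overlap, and the log2 change was -0.87 ± 0.17 (edgeR, adjusted p = 0.0142).

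Other genes that were nearly silent in naive KO ganglia were of unlike function. Slc30a3 encodes the zinc transporter ZnT3 of synaptic vesicles (chromosome 5, 31086106 to 31108237, minus strand, the chromosome and strand of Ucn) and was at 0, 0.0457, 0 and 0.0922 CPM in naive KO and 1.45, 2.04 and 2.02 CPM at 2.5 months. The 97 counts after injury stood against 3 in naive KO, a ratio of 51.2 (exact 95% counting interval 17.01 to 253; edgeR, adjusted p = 0.00257). Hrk, a BH3-only inducer of apoptosis that axotomized neurons express, was at 0.425, 0.686, 0.904 and 0.369 CPM and 3.53, 3.9 and 4.69 CPM, and rose by a log2 change of 2.76 ± 0.41 (edgeR, adjusted p = 0.00622). Its groups did not overlap.
Cdkn2a, whose products p16 and p19 hold the cell cycle and mark senescent cells, was at 1.23, 1.56, 1.65 and 2.35 CPM in naive KO and 9.89, 13.5 and 17.3 CPM at 2.5 months. Each injured library exceeded every naive one, and the log2 change was 2.99 ± 0.43 (edgeR, adjusted p = 0.00483). Capn11, a calpain protease, Cdcp1, a membrane protein, and Fgf3, a fibroblast growth factor, also rose, by log2 changes of 4.27 ± 0.87 (edgeR, adjusted p = 0.0147), 3.09 ± 0.54 (edgeR, adjusted p = 0.0111) and 2.56 ± 0.61 (edgeR, adjusted p = 0.0197). Without ko_39 the log2 changes of Cdcp1 and Fgf3 were 3.998 and 4.07. Without ko_367 that of Fgf3 was 1.97, and the adjusted p of these 3 ranged from 0.0549 to 0.112.

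Some genes of axon injury and regrowth were above naive at 2.5 months. Atf3, the transcription factor used as a marker of axotomized neurons, was at 8.55, 43.3, 10.4 and 5.58 CPM in naive KO and 57.2, 98.3 and 69.8 CPM at 2.5 months. The groups did not overlap although ko_39 reached 43.3 CPM, and the log2 change was 2.14 ± 0.58 (edgeR, adjusted p = 0.0323; length corrected adjusted p = 0.0579), called in 2 of the 7 fits. Sox11, a transcription factor of regeneration, was at 8.03, 15.3, 9.36 and 7.79 CPM and 21.5, 39.8 and 16.9 CPM, a log2 change of 1.36 ± 0.35 (edgeR, adjusted p = 0.026). Gap43, the growth-cone protein GAP-43, was at 210.1, 237, 150.2 and 186 CPM and 353, 373 and 365 CPM, a log2 change of 0.89 ± 0.21 (edgeR, adjusted p = 0.0194). In both cases every injured library was above every naive one. Stmn4, a tubulin-binding stathmin, and Tnfrsf12a, the receptor Fn14, rose by 1.42 ± 0.27 (edgeR, adjusted p = 0.0142) and 0.92 ± 0.19 (edgeR, adjusted p = 0.0147) and were each called in 6 of the 7 fits. Without ko_39 the log2 change of Atf3 was 3.20. Of 11 transcription factors of nerve injury, 4 rose (Atf3, Sox11, Jun and Cebpd), 1 fell (Hif1a, the hypoxia-inducible factor, with a log2 change of -0.52 ± 0.13; edgeR, adjusted p = 0.0224) and 6 were not called. These were 36.4% risen and 9.09% fallen, beside 6.99% and 4.57% of all genes tested. The median log2 change of the 11 was 0.11, and after length correction 3 rose and 1 fell. Of 24 axon growth genes tested, 7 (29.2%) rose and 0 fell. After length correction 8 rose, and the median log2 change was 0.42 as fitted and 0.45 corrected. Sprr1a, a growth gene that axotomy strongly induces, was not called with 154, 274 and 148 CPM against 7.84, 112, 12.3 and 0.277 CPM (edgeR, adjusted p = 0.143); without ko_39 it was called, at a log2 change of 4.83 (edgeR, adjusted p = 0.0448). Without ko_367 the adjusted p of Atf3, Sox11, Gap43, Stmn4 and Tnfrsf12a ranged from 0.0705 to 0.164.

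Tubulin genes of the growing axon moved the same way: Tubb6, an injury-induced beta-tubulin, rose by 1.07 ± 0.26 (edgeR, adjusted p = 0.0208), Tuba1a by 0.58 ± 0.15 (edgeR, adjusted p = 0.0287) and Tuba1b by 0.68 ± 0.18 (edgeR, adjusted p = 0.0282). Of 24 neurofilament and tubulin genes 5 (20.8%, beside 6.99% of all genes tested) rose, 3 after length correction, and 0 fell. All of the 5 were tubulin or stathmin genes. Sema6a, a transmembrane semaphorin that guides axons, rose by 0.78 ± 0.24 (edgeR, adjusted p = 0.0466). None of these was called without ko_367, where the adjusted p ranged from 0.102 to 0.197.

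Subunits of AP-1 were examined because Fos protein is a cargo linked to importin alpha3. Fos was at 2.83, 5.31, 7.07 and 5.63 CPM in naive KO and 19.1, 8.21 and 7.72 CPM at 2.5 months. The injured libraries lay just above the highest naive library, ko_40, except for ko_362, which was far above. The log2 change of Fos was 1.16 ± 0.33 (edgeR, adjusted p = 0.032; length corrected adjusted p = 0.0519), called in 2 of the 7 fits, and without ko_362 it was 0.61 with an adjusted p of 0.175. Jun was at 103, 117, 98.9 and 114 CPM and 152, 154 and 171 CPM, without overlap, a log2 change of 0.55 ± 0.15 (edgeR, adjusted p = 0.0271). Of 16 Fos and Jun family genes tested, 5 (31.25%, beside 6.99% of all genes tested) rose, 4 length corrected, and 0 fell. The list median was 0.66.
Immediate-early genes outside this family, which respond to activity within minutes, had 6 of 25 members (24%) risen and 1 (4%) fallen. Of all genes tested, 6.99% rose and 4.57% fell. Nr4a3, an orphan nuclear receptor, was at 0.425, 0.778, 1.17 and 0.507 CPM and 4.45, 1.56 and 1.33 CPM, and Ier2 at 4.06, 5.35, 7.39 and 7.29 CPM and 23.5, 9.77 and 9.43 CPM. The library ko_362 was the highest of the 3 injured libraries for Fos, Nr4a3 and Ier2, as it was for Egr1, at 110.3, 14.4 and 18.8 CPM against 12.8, 11.5, 20.8 and 16.1 CPM, which was not called (edgeR, adjusted p = 0.0535). Without ko_362 the log2 changes of Nr4a3 and Ier2 were 1.01 and 0.67 against 1.76 ± 0.45 and 1.24 ± 0.29 with it. Dusp4, a phosphatase that ends such signals, fell, with a log2 change of -1.23 ± 0.28 (edgeR, adjusted p = 0.0191).

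Stress-response genes rose in 7 of 22 cases (31.8%, beside 6.99% of all genes tested) and fell in 0, with 5 risen after length correction. Ddit3, the CHOP factor of the unfolded protein response, was at 16.6, 19.4, 20.7 and 17.7 CPM and 34.5, 41.9 and 36.5 CPM, a log2 change of 1.02 ± 0.20 (edgeR, adjusted p = 0.0142). Atf4, which acts upstream of it, was at 149, 159, 167 and 157 CPM and 222, 274 and 242 CPM, a log2 change of 0.64 ± 0.14 (edgeR, adjusted p = 0.018). Neither gene had overlapping groups. Xbp1 and Herpud1, further members of that response, rose by 0.55 ± 0.13 (edgeR, adjusted p = 0.0194) and 0.46 ± 0.10 (edgeR, adjusted p = 0.0153). Without ko_367 the adjusted p of the 4 ranged from 0.0667 to 0.0912.

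Ion channel genes that set sensory neuron excitability had calls in both directions as fitted. Of 14 sodium channel genes 3 (21.4%) fell as fitted (Scn1a, Scn2a and Scn4a), beside 4.57% of all genes tested, and 0 after length correction. Of 59 potassium channel genes 3 (5.08%) rose and 5 (8.47%) fell as fitted, beside 6.99% and 4.57% of all genes tested, and 2 rose and 3 fell length corrected. Kcna1, the Kv1.1 channel that restrains firing, was at 218, 215, 174 and 178 CPM in naive KO and 113, 62.03 and 95.3 CPM at 2.5 months. The groups did not overlap, and its log2 change was -1.12 ± 0.29 (edgeR, adjusted p = 0.0267) or -1.05 length corrected (adjusted p = 0.0382). Trpm8, the cold and menthol channel, was at 34.6, 46.2, 35.5 and 37.3 CPM and 18.97, 5.45 and 8.58 CPM, with all injured libraries below all naive ones. The log2 change of Trpm8 was -1.80 ± 0.48 (edgeR, adjusted p = 0.0282), or -1.74 length corrected, with -2.45 without ko_362 and an adjusted p of 0.123 without ko_367.
Nos1, neuronal nitric oxide synthase, was at 159, 148, 133 and 111 CPM and 68.8, 48.9 and 61.9 CPM, without overlap, a log2 change of -1.20 ± 0.18 (edgeR, adjusted p = 0.00587) that was called in 6 of the 7 fits. Calb2, the calcium buffer calretinin of some large neurons, went from 25.3, 12.3, 6.75 and 27.9 CPM to 3.35, 4.55 and 2.56 CPM, a log2 change of -2.38 ± 0.55 (edgeR, adjusted p = 0.0194). Of all genes tested, 11.6% were called in either direction. Pacemaker channels had 0 calls in 4 and neurotrophic factor receptors 0 in 17, of which 2 were called higher after length correction. Non-peptidergic nociceptor genes had 0 calls in 15, with 2 of the 15 higher and a median log2 change of -0.20. Among them Mrgprd, a receptor of non-peptidergic nociceptors, differed by -0.79 ± 0.31 (edgeR, adjusted p = 0.0902). Capsaicin receptor transcripts (Trpv1) differed by -0.50 ± 0.24 (edgeR, adjusted p = 0.157).

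Macrophage genes were higher in part. Trem2, a lipid-sensing receptor of microglia and tissue macrophages, was at 0.803, 1.05, 1.86 and 1.29 CPM in naive KO and 6.19, 4.79 and 7.35 CPM at 2.5 months. The groups were apart, and the log2 change was 2.29 ± 0.32 (edgeR, adjusted p = 0.00395; length corrected 2.37). The complement C1q genes C1qa, C1qb and C1qc rose by 1.84 ± 0.50 (edgeR, adjusted p = 0.0302), 1.51 ± 0.42 (edgeR, adjusted p = 0.0331) and 1.53 ± 0.48 (edgeR, adjusted p = 0.0494), and none of the 3 was called after length correction. Csf1r, the receptor that defines macrophages, was not called at 7.04, 13.7, 33.01 and 13.1 CPM and 24.5, 17.9 and 32.1 CPM, where ko_40 exceeded every injured library. Of 26 macrophage and microglia genes, 4 (15.4%, beside 6.99% of all genes tested) rose, 1 after length correction, and 0 fell. The median log2 change of the 26 was 0.53. Over the fits that left out 1 library, 1 to 7 of them rose and the median ranged from 0.276 to 0.941, the highest without ko_40. T and B cell genes had 0 calls in 19, beside 11.6% of all genes tested.

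Neutrophil and other granulocyte genes fell. Mmp9, gelatinase B, was at 16.4, 13.1, 50.7 and 26.9 CPM in naive KO and 0.983, 1.08 and 4.63 CPM at 2.5 months. Cxcr2, the neutrophil chemokine receptor, was at 1.94, 2.01, 8.61 and 4.1 CPM and 0, 0.24 and 0.533 CPM, and Mpo, myeloperoxidase, at 5.29, 5.72, 12.1 and 9.87 CPM and 0.925, 1.5 and 0.852 CPM. No injured library reached the lowest naive library for any of the 3. Their log2 changes were -3.56 ± 0.74 (edgeR, adjusted p = 0.0163), -3.94 ± 0.86 (edgeR, adjusted p = 0.0171) and -2.91 ± 0.52 (edgeR, adjusted p = 0.0122). Without ko_378 those of Mmp9 and Cxcr2 were -4.69 and -5.05, and without ko_40 that of Cxcr2 was -3.32. Of 13 neutrophil genes, 6 (46.2%, beside 4.57% of all genes tested) fell and 0 rose as fitted, with a median log2 change of -2.86. Length corrected, 10 fell. Ear6 and Epx of eosinophils and Prss34 of basophils and mast cells fell too, and Ear6 belongs to a family of near-identical genes whose counts are uncertain. The summed neutrophil level was 296 to 902 CPM in naive KO and 25.2 to 165 CPM at 2.5 months. Red blood cell genes, a measure of blood left in the tissue, summed to 279 to 878 CPM and 248.6 to 391 CPM. Of 11 such genes 2 (18.2%) fell, beside 4.57% of all genes tested. The part of blood content in the neutrophil result was not tested.

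Satellite glia, which wrap the neuron bodies, showed 3 falls (18.75%, beside 4.57% of all genes tested) and 0 rises in 16 genes. Fabp7, the brain-type fatty acid-binding protein of these cells, was at 178, 193, 331 and 183 CPM in naive KO and 72.1, 101 and 73.9 CPM at 2.5 months. All injured libraries lay below all naive ones. The log2 change was -1.42 ± 0.22 (edgeR, adjusted p = 0.00714; length corrected -1.69). Rlbp1, a retinaldehyde-binding protein known from retinal glia, was at 8.26, 8.78, 11.96 and 8.67 CPM and 2.89, 5.99 and 4.42 CPM, a log2 change of -1.09 ± 0.21 (edgeR, adjusted p = 0.0138). Gja1, the gap-junction protein connexin 43, and Ednrb, the endothelin B receptor, fell, with log2 changes of -0.95 ± 0.23 (edgeR, adjusted p = 0.0221) and -0.85 ± 0.21 (edgeR, adjusted p = 0.0236), and only Ednrb was called after length correction. The list had a median log2 change of 0.05 and a summed level of 4154 to 6251 CPM in naive KO and 5011 to 6942 CPM at 2.5 months. Myelin genes had 0 calls in 17 and repair Schwann cell genes 0 in 16, beside 11.6% of all genes tested. Genes of dividing cells had 4 falls in 28 (14.3%, beside 4.57% of all genes tested). Among them was Mki67 with a log2 change of -1.76 ± 0.43 (edgeR, adjusted p = 0.0222).

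**Figure D2:**
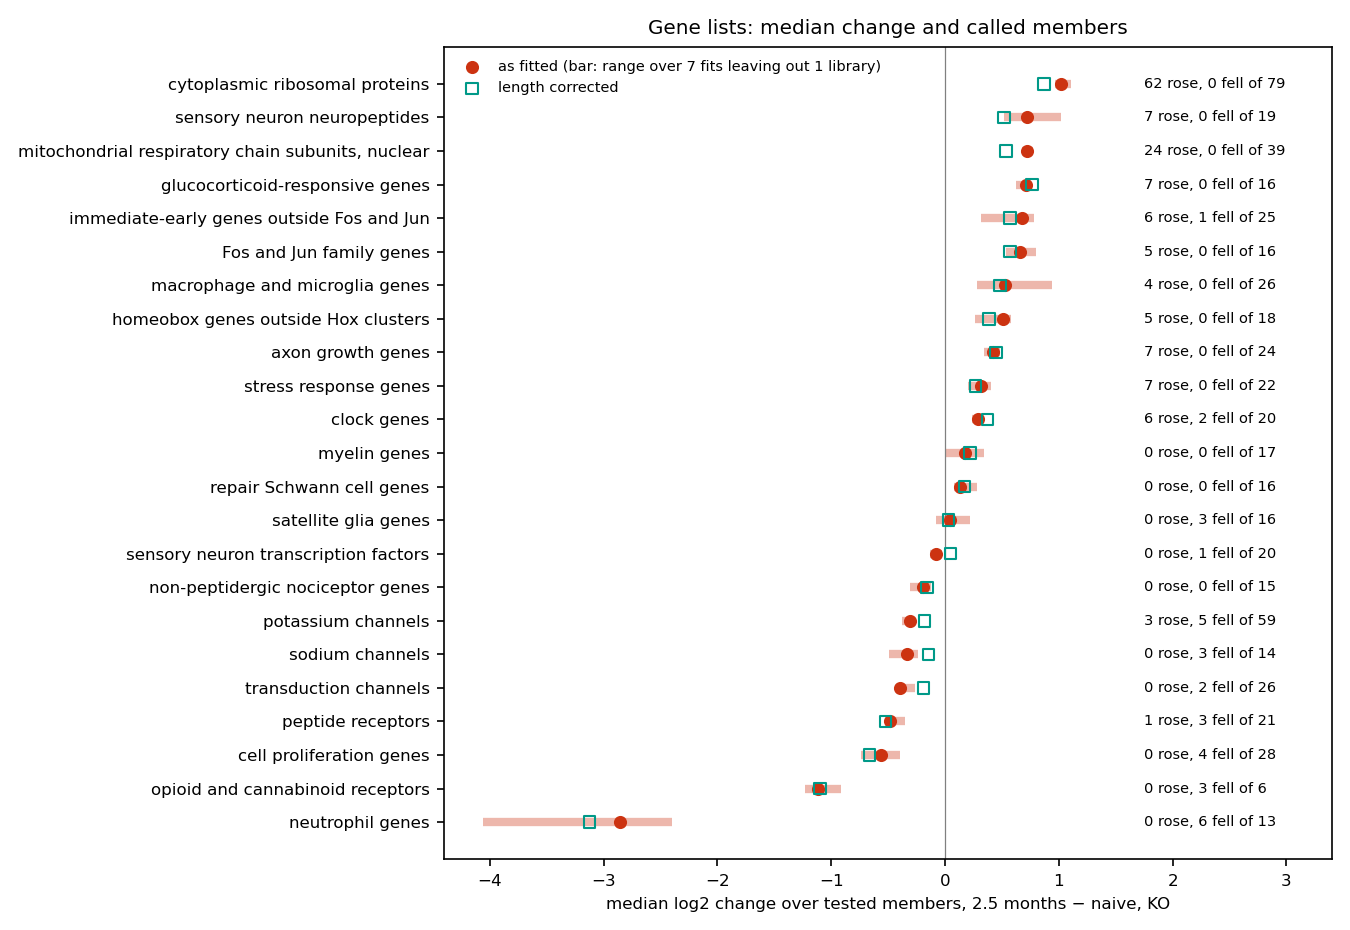
The x axis is the median log2 change (2.5 months − naive, KO) over the tested members of each gene list, as fitted (circles, with the range over the 7 fits that leave out 1 library) and length corrected (squares), and text gives called members. Neutrophil genes (median -2.86) and opioid and cannabinoid receptors (-1.12) were lowest, ribosomal protein genes highest (1.02).

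Clock genes shifted in opposite directions. The negative arm, Per1, Per2 and Per3, represses the positive arm, to which Arntl (BMAL1) and Clock belong, and Dbp, Tef and Ciart are direct outputs. Per1 was at 28.4, 34.4, 32.96 and 29.01 CPM in naive KO and 78.6, 54.8 and 56.6 CPM at 2.5 months, and Dbp at 9.87, 9.15, 11.96 and 15.7 CPM and 34.3, 26.9 and 27.1 CPM. Arntl was at 4.63, 6.5, 7.92 and 6.73 CPM and 1.97, 2.34 and 1.7 CPM. Groups were apart for all 3, Per1 and Dbp above naive and Arntl below. The log2 changes were 1.02 ± 0.22 for Per1 (edgeR, adjusted p = 0.0171), 1.33 ± 0.35 for Dbp (edgeR, adjusted p = 0.0273) and -1.68 ± 0.36 for Arntl (edgeR, adjusted p = 0.0163). Per2 (1.07 ± 0.24), Per3 (0.96 ± 0.29), Ciart (1.11 ± 0.34) and Tef (0.28 ± 0.09) rose and Clock (-0.52 ± 0.16) fell; Ciart and Clock lost their calls after length correction. In all, 6 of 20 clock genes (30%) rose and 2 (10%) fell, beside 6.99% and 4.57% of all genes tested. Per3, Ciart, Tef and Clock were named after their values were seen. The labels do not give the time of day of tissue collection, and its part was not tested. Without ko_367 the adjusted p of Per1, Dbp and Arntl ranged from 0.0665 to 0.0888.

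Glucocorticoid-responsive genes, which adrenal hormones induce, rose in 7 of 16 cases (43.75%, beside 6.99% of all genes tested) and fell in 0. Length corrected, 8 rose, and the median log2 change as fitted was 0.72. Mt2, a metal-binding metallothionein, was at 7.6, 7.55, 12.1 and 12.2 CPM in naive KO and 38.6, 57.1 and 58.8 CPM at 2.5 months, and Mt1 at 33.2, 34.3, 61.9 and 52.5 CPM and 193, 211 and 188 CPM. Both were far above naive in every injured library, with log2 changes of 2.39 ± 0.45 (edgeR, adjusted p = 0.0138) and 2.12 ± 0.38 (edgeR, adjusted p = 0.0126). Tsc22d3, the anti-inflammatory protein GILZ, rose by 0.74 ± 0.16 (edgeR, adjusted p = 0.017), the kinase gene Sgk1 by 0.87 ± 0.21 (edgeR, adjusted p = 0.0196) and the NF-kappaB inhibitor Nfkbia by 0.95 ± 0.17 (edgeR, adjusted p = 0.0122). Fkbp5, a chaperone induced by the same hormones, was called only after length correction (log2 0.79, adjusted p = 0.0461, edgeR). Without ko_367 the adjusted p of the 5 risen genes ranged from 0.0575 to 0.0945.

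**Figure D3:**
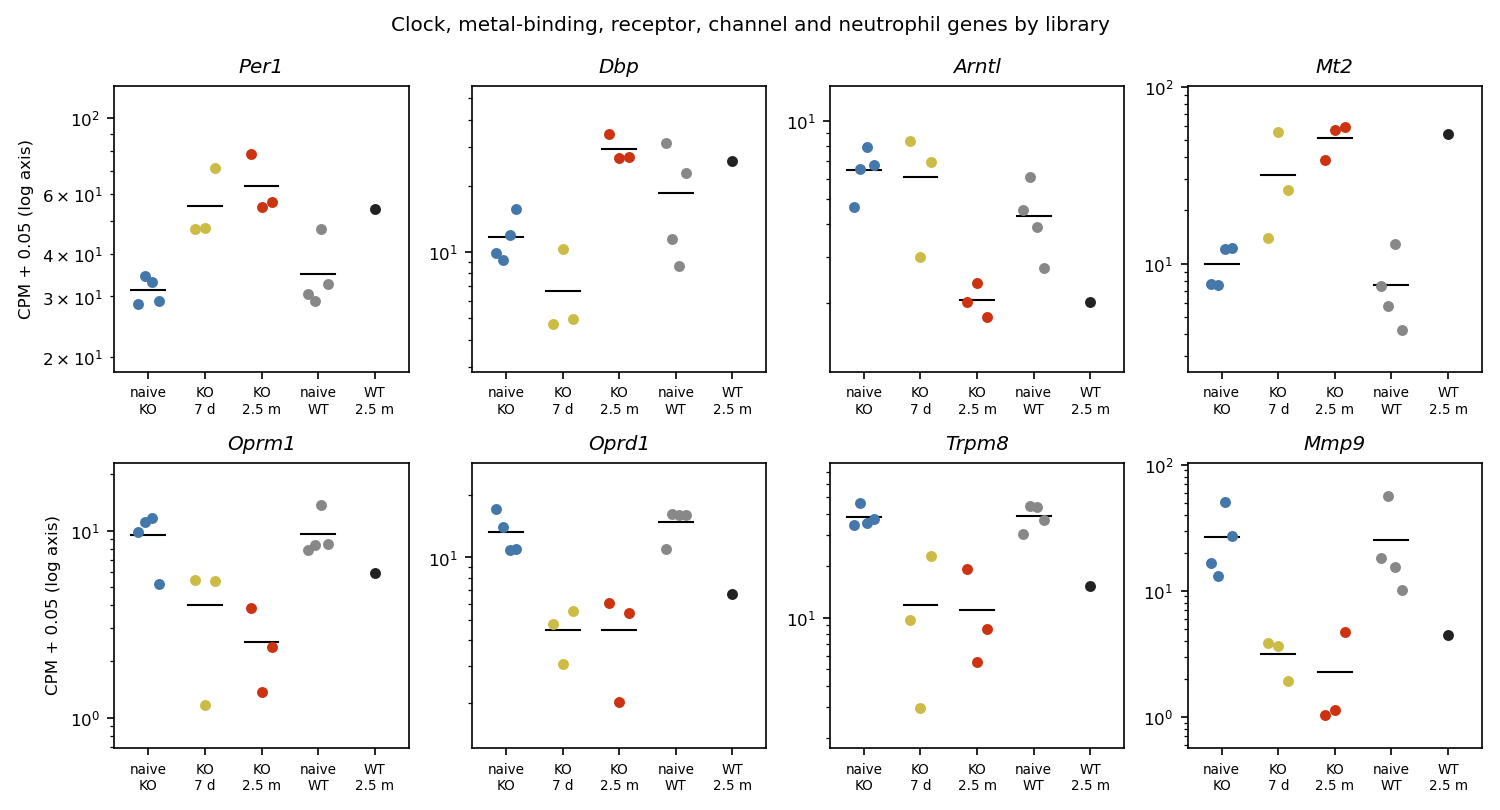
Each point is 1 library, on a log axis of CPM + 0.05, and each bar a group mean, for naive KO (n = 4), KO 7 d (n = 3), KO 2.5 months (n = 3), naive WT (n = 4) and WT 2.5 months after SNI (n = 1). Against naive KO, the 2.5-month libraries were higher for Per1, Dbp and Mt2 and lower for Arntl, Oprm1, Oprd1, Trpm8 and Mmp9, without overlap. All of these genes were called, and nearly all called genes had ranges apart.

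Among the gene lists, those of short transcripts of protein synthesis and respiration had the most risen members. Rps14, a ribosomal protein of the small subunit, was at 76.6, 84.6, 119.5 and 101 CPM in naive KO and 307, 308 and 290.2 CPM at 2.5 months, and Uqcrq, a subunit of respiratory complex III, at 104, 105, 107 and 122 CPM and 275, 283 and 230.4 CPM. Neither gene had overlapping groups, and the log2 changes were 1.66 ± 0.32 (edgeR, adjusted p = 0.0142) and 1.26 ± 0.26 (edgeR, adjusted p = 0.015). Of 79 cytoplasmic ribosomal protein genes, a list chosen after values were seen, 62 (78.5%) rose and 0 fell, and 54 rose after length correction. Of 39 nuclear respiratory chain genes, 24 (61.5%) rose and 0 fell, and 21 rose after correction. Of all genes tested, 6.99% rose as fitted. Counts of ribosomal protein genes are uncertain where processed pseudogenes share their sequence. Median log2 changes were 1.02 and 0.72 as fitted and 0.87 and 0.54 corrected. Genes of the mitochondrial genome had 1 call in 8 (12.5%), beside 11.6% of all genes tested. It was mt-Nd3, at 0.0472, 0, 0 and 0.0461 CPM and 0.867, 1.56 and 2.08 CPM, a gene with nuclear copies that make its count uncertain.

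Exon length separated the calls. Genes that rose had a median exon length of 1962 bases and genes that fell 6637 bases, against 3833 over all genes tested. In genes of up to 1000 bases the median log2 change was 0.62 as fitted and 0.20 corrected, and in genes over 8000 bases it was -0.29 and -0.00048. The linear correction removes 1 trend per library, so gene groups whose true change follows length lose part of it. It also did not level the bins. The corrected median was 0.16 in the bin ending at 2000 bases and -0.019 in the bin ending at 8000 bases. Short genes therefore stayed above long ones after correction. Ribosomal protein and respiratory chain genes had median exon lengths of 1770 and 1972 bases. The part of this remainder in their corrected rises was not tested.

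**Figure D4:**
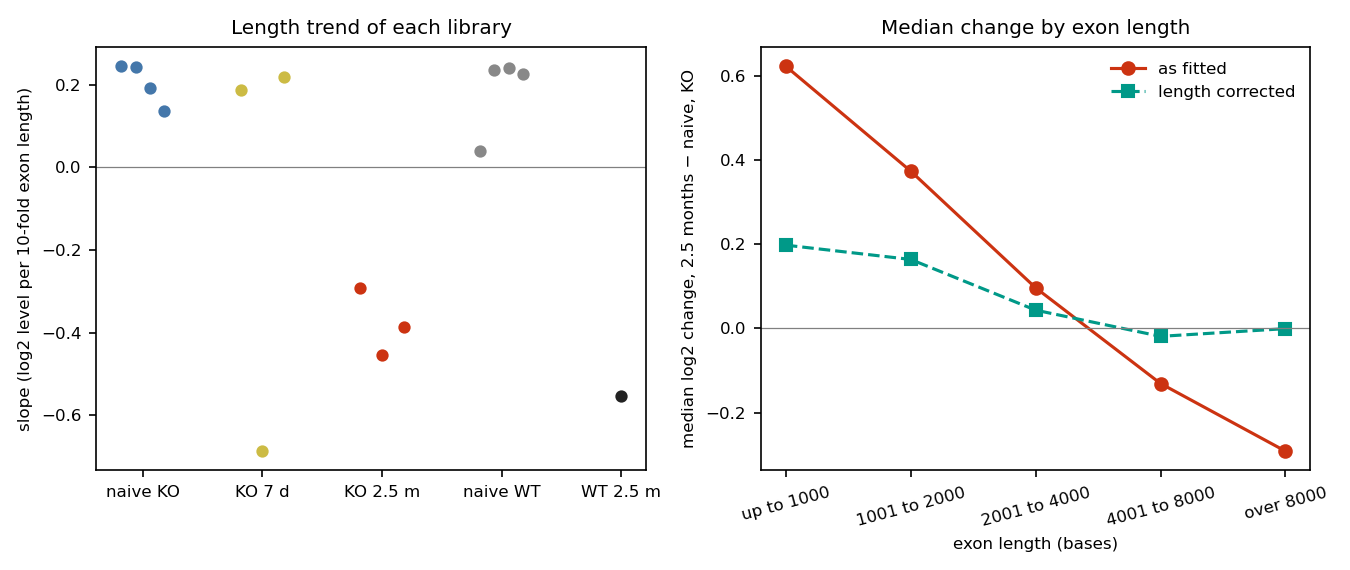
Left, slope of log2 level on log10 exon length, 1 point per library, by group (n = 4, 3, 3, 4 and 1); the naive KO libraries lay between 0.137 and 0.245 and the 2.5-month KO libraries between -0.454 and -0.291. Right, median log2 change from naive in 5 bins of exon length in bases, as fitted (circles) and length corrected (squares).

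Whether the late profile differed from the acute one was tested between 2.5 months and 7 d in KO, since both differences from naive use the same naive libraries. In this contrast 1231 of 19010 genes (6.48%) were called, 407 (2.14%) higher and 824 (4.33%) lower at 2.5 months. After length correction 1379 were called, 555 higher and 824 lower. The count as fitted was 5131 without ko_422, whose length slope of -0.687 lay far under the other 7 d libraries, and 361 without ko_420. The slopes of ko_420 and ko_426 were 0.187 and 0.219, above all 2.5-month libraries, so the length trend is partly mixed with time in this contrast too. Differences from 7 d below are as fitted. Of the 1328 genes above naive at 2.5 months, 24 were lower than at 7 d, 105 were higher, and 1199 were not called. Of the 868 below naive, 93 were called lower than at 7 d, 1 was higher and 774 were not called. These counts do not say where the genes stood against naive at 7 d.

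Several injury genes that were above naive had receded from their 7 d level. Cckbr was at 71.3, 43.4 and 42.3 CPM at 7 d and Sox11 at 132, 144 and 73.3 CPM, all above the 2.5-month libraries. The differences (2.5 months minus 7 d) were -2.19 ± 0.53 (edgeR, adjusted p = 0.0212) and -2.16 ± 0.38 (edgeR, adjusted p = 0.00314). Fgf3 (-2.56 ± 0.56), Atf3 (-2.26 ± 0.63), Tubb6 (-1.77 ± 0.28), Stmn4 (-1.52 ± 0.29), Gap43 (-1.17 ± 0.23), Tnfrsf12a (-0.98 ± 0.20) and Jun (-0.71 ± 0.16) were likewise lower than at 7 d while above naive (edgeR, adjusted p from 0.00152 to 0.0463).
Other genes were called lower than at 7 d and were not called against naive. Csf1, the growth factor by which injured neurons recruit microglia, was at 219, 141 and 127 CPM at 7 d, 25.2, 31.6 and 32.4 CPM at 2.5 months and 23.8, 35.9, 30.2 and 25.9 CPM in naive KO, and the late libraries overlapped the naive ones. The difference from 7 d was -2.45 ± 0.26 (edgeR, adjusted p = 0.000269). Gal was at 327, 813 and 206 CPM at 7 d, a difference of -3.53 ± 0.59 (edgeR, adjusted p = 0.00306). Chac1, a glutathione-degrading enzyme of the stress response, and Cacna2d1, the channel subunit that binds gabapentin, were lower by -1.76 ± 0.21 (edgeR, adjusted p = 0.000269) and -1.46 ± 0.23 (edgeR, adjusted p = 0.00126).

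Further genes were called against both naive and 7 d. Slc30a3 had 0 counts in the 3 KO libraries at 7 d, so its 2.5-month level was at least 24.1-fold higher against a floor of 3 counts over that group (edgeR, adjusted p = 0.000832). Cdkn2a was at 1.66, 6.04 and 1.02 CPM at 7 d, below every 2.5-month library, a difference of 2.23 ± 0.47 (edgeR, adjusted p = 0.0102). Cys1, which encodes the cilium protein cystin, was at 4.34, 3.89, 5.16 and 6.09 CPM in naive KO, 4.32, 5.72 and 5.94 CPM at 7 d and 12.95, 13.7 and 16.3 CPM at 2.5 months. The late libraries were above all others, by 1.56 ± 0.19 against naive (edgeR, adjusted p = 0.00139) and 1.43 ± 0.22 against 7 d (edgeR, adjusted p = 0.00101). Nppb (1.29 ± 0.26) and Dbp (2.15 ± 0.41) were higher and Fabp7 (-1.12 ± 0.23) and Arntl (-1.60 ± 0.38) lower than at 7 d (edgeR, adjusted p from 0.00469 to 0.0195). Nts, En1, Ucn, Hrk, Npy and Trem2 were not called between 2.5 months and 7 d, with differences of -0.25 ± 0.42, 0.91 ± 0.40, -0.43 ± 0.56, -0.33 ± 0.40, -2.14 ± 0.86 and -0.13 ± 0.33, so a rise or fall of that size was not resolved.

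**Figure D5:**
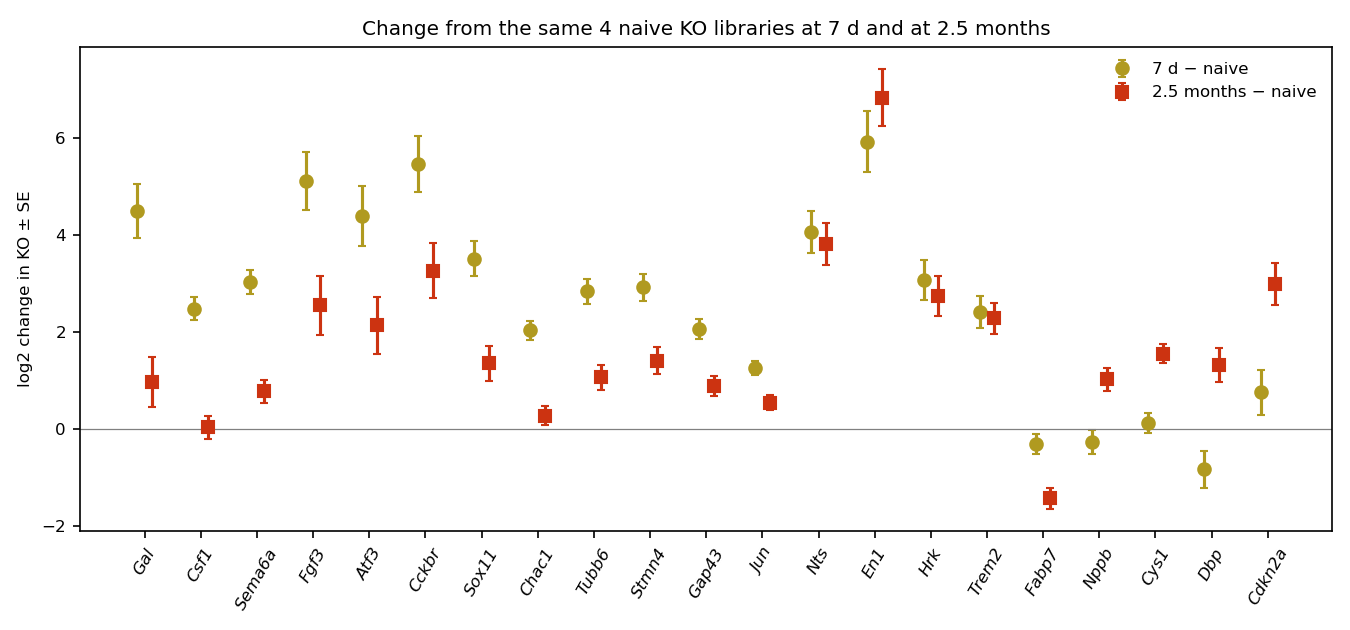
Log2 change ± SE in KO from the same 4 naive libraries at 7 d (n = 3, circles) and at 2.5 months (n = 3, squares) for 21 genes. Csf1 was 0.04 ± 0.24 from naive at 2.5 months and Cdkn2a 2.99 ± 0.43, beside 2.49 and 0.76 at 7 d.

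The lone WT library at 2.5 months gives side-by-side values in libraries outside the KO groups. Of the called genes, taking those that averaged 1 CPM or more, 2027 of 2096 (96.7%) differed from the naive WT mean in the direction seen in KO, against 78.3% of all genes tested at that level compared by the sign of the KO difference. Nts was at 114 CPM there against a naive WT mean of 15.4 CPM, En1 at 6.002 against 0.138 CPM, Oprm1 at 5.86 against 9.52 CPM and Arntl at 1.95 against 4.25 CPM. Other genes risen in KO, picked after their values were seen, were lower in the WT library than in each of the 3 late KO libraries: Slc30a3 was at 0.209 CPM there and 0.0496 CPM in naive WT, Capn11 at 0.279 and 0.862 CPM, and Hrk at 0.558 and 0.756 CPM. With 1 library, whose length slope was like that of the late KO libraries, a difference between genotypes at this time was not tested here.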

How the data were processed

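RNA was sequenced from mouse dorsal root ganglia by a polyA-based protocol, per the labels' protocols. The deposited table used here holds raw counts for 21288 genes on GRCm38. The submitters' processing notes name STAR 2.4.2a0 and HTSeq 0.6.1p1, besides bcl2fastq 2.17.1.14 and cutadapt, and DESeq2 1.10.1. No source used here states the annotation release or the strand setting, so overlapping, antisense and near-identical genes are uncertain. The authors' normalized table was not used.

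Groups came from the sample characteristics and library numbers from the titles; no number was shared between groups, so libraries were not paired. Counts of all 18 libraries were fitted with edgeR 4.0.16 in R 4.3.3: TMM scaling, filterByExpr (minimum count 10, minimum total 15), 1 mean per group, 12 residual degrees of freedom, robust quasi-likelihood F test, Benjamini-Hochberg adjustment over 19010 genes and a call at an adjusted p under 0.05. Log2 changes are ± SE from the F statistic. CPM are counts per 1000000 of scaled library size. "Length corrected" values come from the same fit with offsets that remove each library's linear trend of log2 level on log10 exon length. Alternatives were RLE size factors, no filter, only the compared groups, DESeq2 1.42.0, and leaving out libraries. The fit was tested on simulated counts. Exon lengths, positions and symbols (for 21258 of 21288 genes) were read from GENCODE M21, and promoters from RefSeq (GRCm38.p6).

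Named genes are Kpna4, Fos, Nts, En1 and Npy, the 12 largest rises and falls over 1 CPM and the 6 over 100 CPM with ranges apart, up to 4 called members of each of 61 gene lists with 2 or more calls, and the first 2 of each list; those outside the rule are marked in the text, and some that it names are not reported here. The comparison, its lists and the rule were chosen with earlier results of these data known. Intervals and floors cover counting error only.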

Additional observations from a re-analysis of the deposited data

Results flagged for a closer look

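Among the 4 naive KO libraries, single libraries stood apart from the other three for some of the genes named. The injury genes set ko_39 apart, at 16.5 CPM for Npy, 112 CPM for Sprr1a, 43.3 CPM for Atf3, 3.34 CPM for Cckbr, 1.92 CPM for Fgf3, 25.8 CPM for Tubb6 and 0.274 CPM for Capn11. The library ko_40 stood apart at 17.4 CPM for Hoxd10, 7.71 CPM for Hoxc11, 5.79 CPM for Hoxd11, 331 CPM for Fabp7, 11.96 CPM for Rlbp1 and 3.88 CPM for Epx, and below the rest at 1431 CPM for Prph. The others were En1 at 0.0945 CPM and Cnr1 at 27.6 CPM in ko_35, and Uqcrq at 122 CPM in ko_95. Each gap exceeded Dixon's 95% critical value for 4 samples, which chance exceeds in about 1 in 20 groups of normally spread values. That rate does not hold for counts near 0. For En1 the other naive KO libraries were at 0 CPM, so any count in ko_35 would have exceeded the value. For Cnr1 the gap was small beside its level.

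For 29 of the 107 genes named, the level at 2.5 months and at 7 d differed in the edgeR test of that contrast, beside 6.48% of all genes tested. Many of these genes were named for a call against naive or after their values were seen, so the count describes that choice. The genes lower at 2.5 months, with log2 differences, were Arntl (-1.60), Atf3 (-2.26), Cacna2d1 (-1.46), Cckbr (-2.19), Chac1 (-1.76), Csf1 (-2.45), Fabp7 (-1.12), Fgf3 (-2.56), Gal (-3.53), Gap43 (-1.17), Jun (-0.71), Scn2a (-1.15), Sema6a (-2.25), Sox11 (-2.16), Stmn4 (-1.52), Tnfrsf12a (-0.98) and Tubb6 (-1.77). Those higher were Cdkn2a (2.23), Ciart (1.46), Cys1 (1.43), Dbp (2.15), Herpud1 (0.38), Lhx2 (3.42), Nfkbia (0.68), Nppb (1.29), Per3 (1.15), Sgk1 (0.87), Slc30a3 (4.59) and Tef (0.60). The value for Slc30a3 is a bound against a floor of 3 counts over the 7 d group, and that for Lhx2 rests on 2 counts at 7 d.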

How the results depend on the processing

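The number of genes called between 2.5 months and naive KO was 2196, and 2210 with RLE size factors, 2027 without the filter and 1508 after length correction, all within 1.5 times. It was 4097 with only the compared groups in the fit, 3585 with DESeq2 and 46 without ko_39 and ko_40 together; leaving out each library in turn gave 14 to 1814. Between 2.5 months and 7 d it was 1231, and 285 with only the compared groups and 2046 with DESeq2; leaving out each library gave 361 to 5131. The cause of these moves was not tested, beyond the fewer libraries in the compared-groups and leave-one-out fits. No paired analysis was possible because library numbers were not shared between groups.

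Of 107 named genes with a fit, 86 were called, and calls lost numbered 2 with DESeq2, 1 with RLE, 3 with only the compared groups, 4 without the filter, 16 after length correction, 71 without ko_367 and 64 without ko_39 and ko_40. No called gene changed sign. Signs changed for genes that were not called, with ranges of the log2 change over the leave-one-out fits: Avil (-0.15 to 0.0103), Cacna2d1 (-0.0809 to 0.14), Csf1 (-0.0442 to 0.16), Kpna4 (-0.92 to 0.62) and Pou4f1 (-0.0275 to 0.12, and -0.000399 without ko_39 and ko_40). The scaling alternatives moved the median log2 change of all genes between -0.02 and 0.03. Depth limits genes under 1 CPM, where 1 count weighs about 0.05 CPM.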
